A study of Mus musculus with 11 samples.

Results

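Double-strand break repair and checkpoint genes were examined in mouse testis RNA. The set comprised 38 genes, chosen by name for homologous recombination, the Fanconi anaemia pathway, end joining and damage checkpoints, and all 38 were present among the 24411 genes of the deposited count table. Whole decapsulated testes of mice aged 20 weeks were sequenced as polyadenylated RNA in 11 samples. They comprised 4 wild-type (WT) samples and 4 samples with a global knockout of Aco1, the gene of iron regulatory protein 1 (Irp1-/-). The other 3 samples were labelled as a knockout of Ireb2, the gene of iron regulatory protein 2 (Irp2-/-). No treatment was given. Per the study's methods, the Irp1-/- line was kept on a C57Bl/6J background with WT littermates from heterozygous intercrosses, and the origin of the Irp2-/- line is not given in the sources used here. The Irp1-/- knockout is not limited to germ cells, so a difference in testis need not arise in germ cells. The same may hold for the Irp2-/- samples. The question posed by the design was which transcripts related to spermatogenesis differ in Irp1-/- testes, and the Irp2-/- samples allowed the same question for the other iron regulatory protein. The labels do not say which samples came from separate animals, so p-values measure the spread between these samples.

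A double-strand break is first detected by the MRN complex and the kinase Atm, and the kinase Atr responds to single-stranded DNA. Both kinases phosphorylate histone H2AX in the flanking chromatin, where Mdc1 and the ubiquitin ligases Rnf8 and Rnf168 are recruited. The ends of a break are either resected and repaired from a homologous template or rejoined directly by the Ku-dependent end joining machinery. Repair from a template uses Brca1, Brca2 and the strand exchange proteins, with help from the Fanconi anaemia proteins and RecQ helicases. In the testis these proteins have a further use, because spermatocytes cut their own DNA to start meiotic recombination, and because Atr, Topbp1, Mdc1 and H2AX mark the unsynapsed X and Y chromosomes for silencing.

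Total counts lay between 15902473 and 22451417 per sample. None of the 15 within-genotype pairs of libraries agreed within sampling noise, so none was treated as a copy. Levels are given in CPM, the reads of a gene per 1000000 counted reads of its library. Ireb2 ranged from 61.8 to 62.8 CPM in Irp2-/- testes and from 131 to 144 CPM in WT. Aco1 ranged from 7.93 to 9.13 CPM in Irp1-/- testes and from 9.80 to 12.9 CPM in WT, so reads on both targeted genes were lower in the knockout but not absent. The labelled tissue was checked against markers, and the sum of 8 elongating spermatid markers reached 17900 to 23300 CPM in the 11 samples, while 6 epididymis markers together did not exceed 0.251 CPM.

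The promoters of a few members are shown first, and the neighbours and levels of the members are described after them. RefSeq promoters of GRCm38.p6 were matched by symbol for 28 of the 38 members, and Rad50, Nbn, H2afx, Rbbp8, Exo1, Rad51d, Xrcc2, Fancd2, Wrn and Prkdc had no entry. The last 100 bases before the RefSeq transcription start are printed 5′ to 3′ on the gene's own strand, with capitals marking an SP1 site, an NF-Y site, an E2F site or a cAMP response element in either orientation. Their letters are given with the counts below the sequences. Per kilobase of the longest transcript Atr and Mdc1 had the highest and Chek2 and Palb2 the lowest WT levels of the members. Chek2 also had the largest fold change of the members in Irp1-/- against WT. Palb2 had the largest in Irp2-/- against WT and in Irp1-/- against Irp2-/-. Both genes are among the members with the fewest reads, and neither was called. Brca2 carried the only cAMP response element. Atr lies at chr9:95857497-95857596 (plus strand), Mdc1 at chr17:35841398-35841497 (plus), Palb2 at chr7:122132947-122133046 (minus), Chek2 at chr5:110839883-110839982 (plus) and Brca2 at chr5:150522521-150522620 (plus).
Atr: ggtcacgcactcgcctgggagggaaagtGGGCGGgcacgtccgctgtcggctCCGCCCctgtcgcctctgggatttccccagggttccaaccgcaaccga
Mdc1: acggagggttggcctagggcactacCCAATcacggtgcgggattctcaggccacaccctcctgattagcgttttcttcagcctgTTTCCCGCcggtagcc
Palb2: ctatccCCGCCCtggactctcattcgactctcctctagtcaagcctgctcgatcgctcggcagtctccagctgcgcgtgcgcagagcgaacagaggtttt
Chek2: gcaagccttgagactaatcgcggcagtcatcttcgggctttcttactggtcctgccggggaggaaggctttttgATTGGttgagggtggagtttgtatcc
Brca2: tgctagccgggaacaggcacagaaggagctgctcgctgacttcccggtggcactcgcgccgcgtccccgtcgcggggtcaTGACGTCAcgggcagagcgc

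Over the whole 250 bases upstream, searched on both strands, the members' promoters were rich in CpG dinucleotides and SP1 sites. At least 10 CpG were found in 26 of 28 members (92.9%) and in 66.3% of the 12115 promoters of tested genes, although the median GC content was 58.8% in both. The SP1 site GGGCGG was present in 20 of 28 members (71.4%) and in 54.3% of tested promoters. The NF-Y site CCAAT was present in 13 (46.4%, against 36.3%). An E2F site (TTTCCCGC or TTTGGCGC), bound by the factors that drive genes at the start of S phase, was present in 5 (17.9%, against 2.25%), namely Mdc1, Bard1, Brca2, Xrcc6 and Chek2. The Mdc1 site lies in the stretch printed above, and the Brca2 and Chek2 sites lie further upstream. The cAMP response element TGACGTCA, bound by the testis factor CREM among others, was present in 1 member (3.57%, against 2.6%). The NRF1 site CGCATGCGC was present in Fancm and Lig4 (7.14%, against 2.77%), and the cell cycle element TTTGAA in Rnf8 and Bard1 (7.14%, against 11.2%). These matches describe letters in a window and no test was applied to them.

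Many members start beside a neighbour that is read in the other direction. In the GENCODE annotation of GRCm38, 12 of 38 members (31.6%) had a divergent protein-coding neighbour, against 1568 of 14303 tested protein-coding genes (11%). Such a neighbour starts on the opposite strand, between 1000 bases upstream and 200 bases downstream of the gene's own start. The starts of Lig4 and Abhd13 lie 21 bases apart, those of Fancd2 and Emc3 30 bases, those of Palb2 and Dctn5 56 bases, and those of Rad51c and Tex14, which encodes a protein of germ cell intercellular bridges, 111 bases. Brca1 is paired with Nbr1, Atm with Npat, Prkdc with the replicative helicase subunit Mcm4, Topbp1 with 1300017J02Rik, Rad54l with Pomgnt1, Xrcc3 with Zfyve21 and Wrn with Purg. Chek2 starts 202 bases from Hscb, which encodes a co-chaperone of iron-sulfur cluster assembly.

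In WT testes the members spanned a wide range of levels, given here as CPM per kilobase of the longest protein-coding transcript so that genes of different length can be set side by side. The median member had 5.64 CPM per kb, close to the 5.28 CPM per kb of the 15337 tested genes with a known length, and 19 of the 38 lay above the latter value. No member was in the top 10% of tested genes, and 1, Chek2, was in the lowest 25%. In read counts the set was dominated by few genes, since Atr and Mdc1 took 37.1% of the members' reads and Atr, Mdc1, Parp1, Topbp1 and Trp53bp1 took 54.2%. The spread between WT samples was small, with a median coefficient of variation of 6.05% over the members and 7.13% over all tested genes.

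The sensing and signalling genes held the highest levels. Mdc1, the scaffold that binds phosphorylated H2AX, had 42.7 ± 0.764 CPM per kb (SD, n = 4), and Atr, the kinase activated by single-stranded DNA, had 42.7 ± 1.23 (SD, n = 4). H2afx, which encodes H2AX itself, had 38.9 ± 2.24 (SD, n = 4). Topbp1, the Atr activator, followed at 17.7 CPM per kb, ahead of the MRN subunit Nbn at 12.9 and the ubiquitin ligase Rnf168 at 10.5. The other MRN subunits Mre11a and Rad50 had 6.69 and 4.59 CPM per kb, and the ligase Rnf8 had 3.29. Atm, the kinase activated at break ends, was the lowest of this group at 2.001 ± 0.210 CPM per kb (SD, n = 4). Atr thus exceeded Atm per length in every sample.

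The end joining group was uneven. Parp1, which senses DNA ends and strand nicks, had 33.7 CPM per kb and the ligase cofactor Xrcc4 had 18.6. The Ku subunits Xrcc6 and Xrcc5 had 7.72 and 7.16, the ligase Lig4 had 7.14, and Prkdc, the catalytic subunit that Ku recruits, had 1.56. Among the genes that protect or resect ends, Rbbp8 (CtIP) had 15.9 CPM per kb, Trp53bp1 (53BP1) had 8.29 and the exonuclease gene Exo1 had 1.49.

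The homologous recombination genes spanned a lower range than the sensing genes at the top. Within the BRCA complex Brca2, a mediator of homologous recombination, had 6.10 CPM per kb, Brca1 had 3.59, its partner Bard1 had 2.19, and Palb2, which bridges Brca1 and Brca2, had 1.48 ± 0.173 (SD, n = 4). Among the strand exchange genes Rad51c had 7.12, Xrcc2 had 4.32 and Rad51d had 3.86, and Rad52, Rad54l and Xrcc3 had 2.67, 1.87 and 1.76. In the Fanconi anaemia pathway the monoubiquitinated pair Fancd2 and Fanci had 7.56 and 5.19, the core complex genes Fancc and Fanca had 3.33 and 3.29, and the translocase gene Fancm had 1.57. The RecQ helicase genes Blm and Wrn had 9.02 and 8.34. The checkpoint kinase genes were near the bottom, with Chek1, the Atr target, at 2.36 and Chek2, the Atm target, at 0.530 ± 0.121 CPM per kb (SD, n = 4), or 15 to 41 reads in a library. Ranked by this measure, 10 of the 37 neighbouring pairs did not overlap between WT samples and 27 did. The separated steps included H2afx from Parp1, Parp1 from Xrcc4 and Palb2 from Chek2, whereas Mdc1 overlapped with Atr, and Atr with H2afx. The choice of transcript length matters for some genes. With the mean length of a gene's transcripts Mdc1 had 112 CPM per kb and Parp1 83.3, both above Atr at 42.9, and Exo1 had 7.44. Mre11a then had 17.98, above Nbn at 15.3, Brca1 had 9.48, Fancm had 5.29, and Xrcc5 kept 7.16 and went from rank 15 to rank 24. There were 7 members that moved by over 5 ranks (Wrn, Xrcc5, Mre11a, Rad50, Brca1, Rnf8 and Exo1), so the order given here holds for the longest transcript only.

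**Figure D1:**
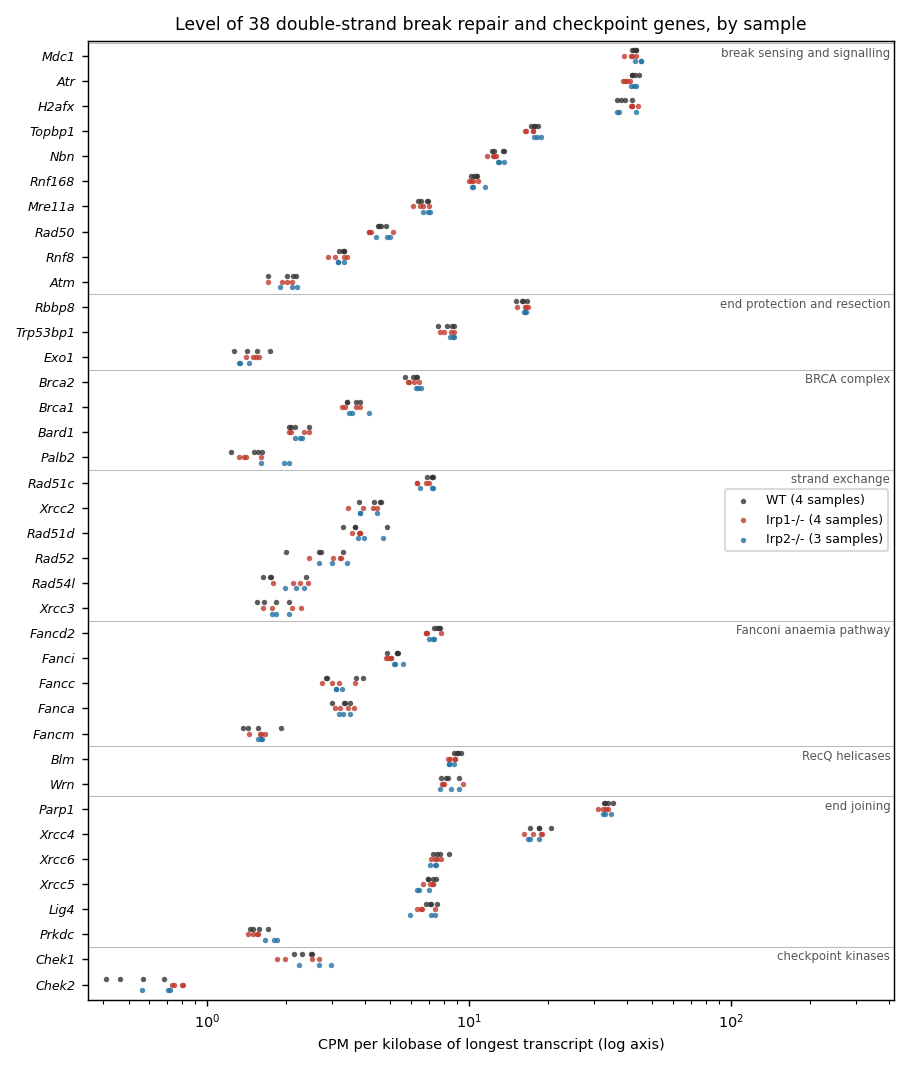
Level of each of the 38 members in every sample, as CPM per kilobase of the longest transcript on a log axis, grouped by role and ordered within a role by the WT mean. Each point is 1 sample (4 WT, 4 Irp1-/-, 3 Irp2-/-), and the points of the 3 genotypes lie close together for nearly every gene while the genes span from Chek2 at 0.530 to Mdc1 at 42.7 CPM per kb in WT.

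In Irp1-/- against WT testes no member passed the test. All 38 passed the filter on low counts, and 0 had an adjusted p under 0.05 in edgeR's quasi-likelihood test, while 164 of 16002 tested genes (1.02%) did. DESeq2 also called 0 members, against 1.27% of the genes to which it gave an adjusted p, and it gave none to Chek2, the member with the fewest reads. At an unadjusted p under 0.05 there were 3 members (7.89%), Atr with a lower and H2afx and Chek2 with a higher value, which is a smaller share than the 12.1% of all tested genes. DESeq2 gave 2, Atr and H2afx. The fold changes were small and mostly below 0, with 28 members lower and 10 higher and a median log2 fold change of -0.047, beside 50.3% lower and a median of -0.0008 over all tested genes. Their range was -0.11 to 0.54.

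The data bounded these differences closely. The 95% confidence interval of the fold change lay within 1.2-fold in either direction for 30 of the 38 members, and within 1.5-fold for 37. The exceptions at 1.2-fold were Palb2, Xrcc2, Xrcc3, Rad52, Rad54l, Fancc, Chek1 and Chek2, which are among the members with the fewest reads. In simulated counts made from these samples the same fit recovered 96% of changes of 1 and 69% of changes of 0.5 on the log2 scale. The changed genes were drawn at random, and smaller changes, such as the median of the members, were not simulated.

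Atr gave the smallest p. It had 338, 347, 340.1 and 360.0 CPM in the WT samples and 313, 323, 319 and 332 CPM in the Irp1-/- samples. The highest Irp1-/- sample thus lay below the lowest WT sample. Its log2 fold change was -0.11 (standard error 0.037, unadjusted p = 0.00772, adjusted p = 0.197), a difference that does not pass over all genes. Atr shares exon positions with 1700065D16Rik, an antisense gene that was also tested, and whether the counting used strand is not stated in the sources used here.

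H2afx had 54.2, 52.3, 58.0 and 50.8 CPM in WT and 57.4, 57.9, 57.9 and 61.1 CPM in Irp1-/- samples. WT replicate 3 lay within the Irp1-/- range, so the groups overlapped. The log2 fold change was 0.12 (standard error 0.049, unadjusted p = 0.0190, adjusted p = 0.285). Replicating cells make a form of the H2AX transcript without a poly(A) tail, and a poly(A) library counts only the polyadenylated form.

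Chek2 had 1.29, 0.932, 1.55 and 1.05 CPM in WT and 1.67, 1.84, 1.70 and 1.82 CPM in Irp1-/- samples. The groups did not overlap, but the values rest on 15 to 27 reads per WT library and 29 to 41 per Irp1-/- library. In the fit the log2 fold change was 0.54 (standard error 0.22, 95% confidence interval 0.09 to 0.99, adjusted p = 0.288). For its divergent neighbour Hscb this value was -0.02 (adjusted p = 0.980). Atr and Chek2 were the only members, 2 of 38 (5.26%), whose WT and Irp1-/- samples did not overlap, which held for 6.63% of all tested genes.

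Rad51c, Fancd2 and Rad54l were next by p. Rad51c had 28.6, 28.3, 27.1 and 28.3 CPM in WT and 24.9, 24.8, 27.6 and 27.0 CPM in Irp1-/- samples (log2 fold change -0.11, standard error 0.059, unadjusted p = 0.0748). Fancd2 had 40.6, 41.3, 42.6 and 42.1 CPM in WT and 37.98, 42.8, 37.8 and 37.5 CPM in Irp1-/- samples (log2 fold change -0.09, standard error 0.052, unadjusted p = 0.0927), and Irp1-/- replicate 2 stood above every WT sample. Rad54l, a motor protein gene of strand exchange, had 4.93, 5.28, 5.23 and 7.19 CPM in WT and 7.32, 6.84, 5.39 and 6.41 CPM in Irp1-/- samples (log2 fold change 0.20, standard error 0.13, unadjusted p = 0.142). In each of these 3 genes the ranges of the groups overlapped.

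By role, all 6 end joining genes had a fold change below 0, between -0.08 and -0.02, and so did 9 of 10 sensing and signalling genes, H2afx being the exception. The BRCA complex had 3 of 4 below 0 with a median of -0.012, the Fanconi anaemia genes 3 of 5 with a median of -0.071, both RecQ helicase genes were at or below 0, and 3 of 6 strand exchange genes were above 0 with a median of 0.056. In end protection and resection 2 of 3 genes were above 0 (median 0.007), and of the checkpoint kinase genes Chek2 was above 0 and Chek1 below (median 0.24). No member of any of these groups passed the test. Summed over the 38 genes, the Irp1-/- samples held 1697 to 1751 CPM and the WT samples 1755 to 1792 CPM. Among the members, Atr added the most to the gap between these sums. On the log2 scale, where each gene weighs the same, the members' mean difference from WT was -0.038 to 0.021 in the Irp1-/- samples and -0.027 to 0.040 in the WT samples, so the groups overlapped.

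Cell type markers in the same comparison are given beside these values. For the 9 early spermatocyte markers the median log2 fold change was -0.083, with 0 called and a sum of 628 to 658 CPM in Irp1-/- and 665 to 681 CPM in WT samples. The 9 markers of pachytene and later spermatocytes had a median of -0.052 with 0 called, summing to 2780 to 2830 CPM in Irp1-/- and 2820 to 2930 CPM in WT samples. The 6 Leydig cell markers had a median of 0.40 with 0 called, summing to 917 to 1120 CPM in Irp1-/- and 683 to 966 CPM in WT samples, and of 9 Sertoli cell markers 1 was called higher, with a median of 0.12 and sums of 1130 to 1270 and 1010 to 1100 CPM. Of 4 blood markers 3 were tested and 0 called, with a median of 0.74 and sums of 37.2 to 52.9 and 22.7 to 37.1 CPM. The spermatogonia, round spermatid and elongating spermatid lists had medians of -0.032, 0.026 and -0.015 with 0 called. Round spermatid markers summed to 1620 to 1740 CPM in Irp1-/- and 1610 to 1690 CPM in WT samples. For elongating spermatid markers the sums were 20200 to 23300 and 21200 to 22100 CPM. Peritubular myoid, macrophage and endothelium lists had medians of 0.046, 0.017 and -0.020 with 0 called. The part of these cell types in the members' values was not tested. In whole testis RNA, fewer cells of a type and less RNA per cell cannot be told apart.

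**Figure D2:**
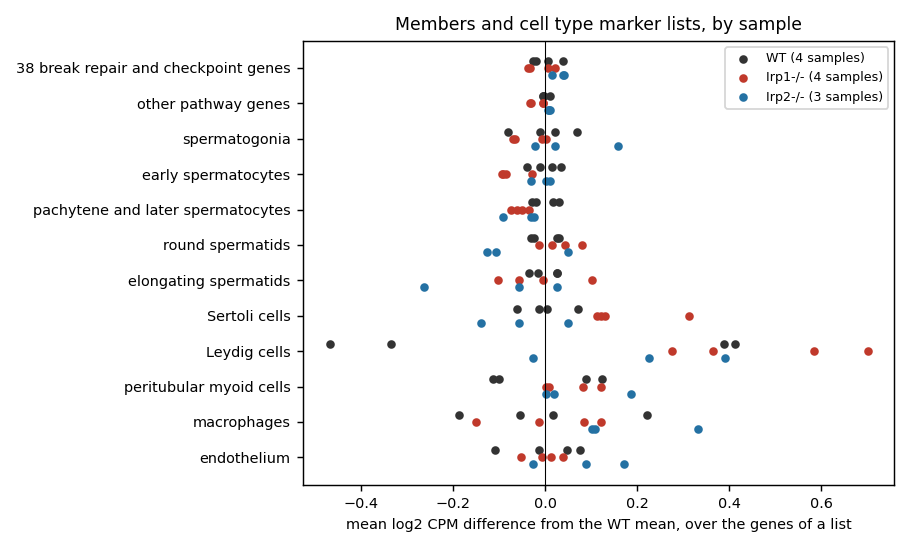
Mean log2 CPM difference from the WT mean, over the genes of each list, with 1 point per sample for 4 WT, 4 Irp1-/- and 3 Irp2-/- samples. The points of the 38 break repair and checkpoint genes lie between -0.038 and 0.042 in all samples, and the Leydig cell markers spread from -0.467 to 0.701 with WT samples at both sides of 0.

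In Irp2-/- against WT testes no member passed the test either. Of 16154 tested genes 196 (1.21%) were called by edgeR and 0 of these were members, and DESeq2 called 1.07% of its genes and 0 members. At an unadjusted p under 0.05 there were 2 members (5.26%), Palb2 and Prkdc, both with a higher value, against 9.42% of all tested genes, and DESeq2 gave 1, Palb2. The direction of the small differences was mostly upward, with 25 members above 0 and 13 below and a median log2 fold change of 0.032, beside 51.3% above 0 and a median of 0.0033 over all tested genes. The confidence interval lay within 1.2-fold for 26 members and within 1.5-fold for 36, Palb2 and Chek2 being the exceptions. Both knockouts were compared with the same 4 WT samples, so their fold changes against WT are not independent.

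Palb2 had 6.05, 4.598, 5.86 and 5.64 CPM in WT and 7.70, 6.00 and 7.36 CPM in Irp2-/- samples. Irp2-/- replicate 2 lay within the WT range and the other Irp2-/- samples above it. Its log2 fold change was 0.34 (standard error 0.13, unadjusted p = 0.0147, adjusted p = 0.317), and Dctn5, which starts 56 bases away on the other strand, had -0.05 (adjusted p = 0.922).

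Prkdc had 20.0, 18.4, 18.9 and 21.5 CPM in WT and 20.9, 22.7 and 23.4 CPM in Irp2-/- samples, so that the lowest Irp2-/- sample lay below the highest WT sample. The log2 fold change was 0.18 (standard error 0.076, unadjusted p = 0.0261, adjusted p = 0.407), and its divergent neighbour Mcm4 had 0.09 (adjusted p = 0.901).

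Blm and Fancd2 were the 2 members (5.26%) whose Irp2-/- and WT samples did not overlap, against 9.23% of all tested genes. Blm, the helicase that dissolves joint DNA molecules, had 42.9, 41.8, 43.1 and 44.2 CPM in WT and 39.8, 41.6 and 39.8 CPM in Irp2-/- samples, and the gap between the groups was narrow (log2 fold change -0.09, standard error 0.055, adjusted p = 0.700). Fancd2 had 38.8, 40.0 and 40.3 CPM in Irp2-/- samples, just below the WT minimum of 40.6 CPM (log2 fold change -0.07, standard error 0.055, adjusted p = 0.806). Its exons overlap Fancd2os, a tested gene of the opposite strand.

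Xrcc5 had 19.0, 17.8, 17.8 and 18.6 CPM in WT and 17.9, 16.4 and 16.2 CPM in Irp2-/- samples (log2 fold change -0.12, standard error 0.077, adjusted p = 0.716). Rad54l had 5.97, 7.08 and 6.58 CPM in Irp2-/- samples, within the WT range (log2 fold change 0.21, standard error 0.14, adjusted p = 0.732). Mdc1 had 319, 317, 312 and 306 CPM in WT and 316, 333 and 332 CPM in Irp2-/- samples (log2 fold change 0.06, standard error 0.043, adjusted p = 0.746). All 4 genes of the BRCA complex and both checkpoint kinase genes had fold changes above 0, and 5 of 6 end joining genes had fold changes below 0, with Prkdc the exception. In this comparison 0 markers of the 12 cell type lists were called, and the medians of the tested lists lay between -0.088 for elongating spermatids and 0.22 for Leydig cells.

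Atm lies on chromosome 9 only 1.33 Mb from Ireb2, with 14 tested genes between them, and was the member closest to either targeted gene. It had 16.7, 19.7, 21.4 and 20.8 CPM in WT, 16.7, 19.8, 18.9 and 20.6 CPM in Irp1-/- and 21.6, 18.6 and 20.6 CPM in Irp2-/- samples. These ranges overlapped throughout. The log2 fold change in Irp2-/- against WT was 0.05 (95% confidence interval -0.13 to 0.22, adjusted p = 0.946), and its divergent neighbour Npat had 0.06 (adjusted p = 0.864). Chromosome 9 holds 6 of the 38 members, of which H2afx was the next nearest to Ireb2 at 10.5 Mb. No member lies within 10 Mb of Aco1, the nearest being Nbn at 24.2 Mb.

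The direct comparison of Irp1-/- with Irp2-/- testes, which uses no WT sample, gave the lowest adjusted p-values but again no member past the threshold. Of 16281 tested genes 763 (4.69%) were called by edgeR and 3.83% by DESeq2, with 0 members in each. At an unadjusted p under 0.05 there were 4 members in both tools, Palb2, Prkdc, Mdc1 and Atr, all with a lower value in Irp1-/- (10.5%, against 16.3% of all tested genes). Of the 38 members 28 were lower in Irp1-/-, with a median log2 fold change of -0.020, beside 50.6% lower and a median of -0.0019 over all tested genes. The confidence interval lay within 1.2-fold for 27 members and within 1.5-fold for 36, again without Palb2 and Chek2.

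Palb2 had 5.18, 4.95, 5.99 and 5.28 CPM in Irp1-/- samples, against 6.00 to 7.70 CPM in Irp2-/-. The groups did not overlap, by the narrow margin between 5.99 and 6.00 CPM. The log2 fold change was -0.39 (standard error 0.12, 95% confidence interval -0.65 to -0.14, unadjusted p = 0.00444, adjusted p = 0.0756), the largest difference among the members in this comparison. Dctn5 had 0.01 (adjusted p = 0.969).

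Prkdc had 18.1, 19.6, 18.9 and 19.8 CPM in Irp1-/- samples, all below the 20.9 to 23.4 CPM of Irp2-/-. Its log2 fold change was -0.22 (standard error 0.072, unadjusted p = 0.00542, adjusted p = 0.0849). Prkdc was the only member that crossed the threshold under any alternative. Without Irp2-/- replicate 1 its log2 fold change was -0.27 with an adjusted p of 0.0486, and over the other alternatives its adjusted p lay between 0.0758 and 0.337. The share of all genes called in the fit without that replicate is not given here, and in the main fit 4.69% were called.

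Of the signalling genes at the top of the level order, Mdc1, Atr and Topbp1 had fold changes below 0. Mdc1 had 303, 306, 318 and 286 CPM in Irp1-/- samples (log2 fold change -0.11, standard error 0.048, adjusted p = 0.250). Atr had 352, 345 and 335 CPM in Irp2-/- samples, all above the Irp1-/- maximum of 332 CPM (log2 fold change -0.10, standard error 0.045, adjusted p = 0.286). Topbp1 had 91.8, 85.3, 86.2 and 91.7 CPM in Irp1-/- and 98.4, 95.1 and 92.4 CPM in Irp2-/- samples (log2 fold change -0.10, standard error 0.050, adjusted p = 0.306). H2afx went the other way, with 59.7, 50.8 and 51.7 CPM in Irp2-/- samples (log2 fold change 0.12, standard error 0.060, adjusted p = 0.354).

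In 7 members (18.4%) the Irp1-/- and Irp2-/- samples did not overlap, close to the 15.2% of all tested genes. Besides Palb2, Prkdc, Atr and Topbp1 these were Nbn, Fanci and Chek2. Nbn had 29.5, 31.5, 31.3 and 32.1 CPM in Irp1-/- and 32.6, 34.4 and 32.9 CPM in Irp2-/- samples (log2 fold change -0.10, adjusted p = 0.465). Fanci had 23.3, 22.8, 22.4 and 23.4 CPM in Irp1-/- and 25.9, 24.0 and 24.1 CPM in Irp2-/- samples (log2 fold change -0.10, adjusted p = 0.473). Chek2 had 1.60, 1.28 and 1.63 CPM in Irp2-/- samples, below the Irp1-/- minimum of 1.67 CPM (log2 fold change 0.22, adjusted p = 0.670). In the same comparison the 9 Sertoli cell markers had 3 called higher in Irp1-/- and the 6 Leydig cell markers 2, with medians of 0.12 and 0.27. Of 8 tested spermatogonia markers 1 was called lower (median -0.072), and of 8 round spermatid markers 1 was called higher (median 0.092). The other lists had no marker called. The part of these cell types in the members' values was not tested.

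**Figure D3:**
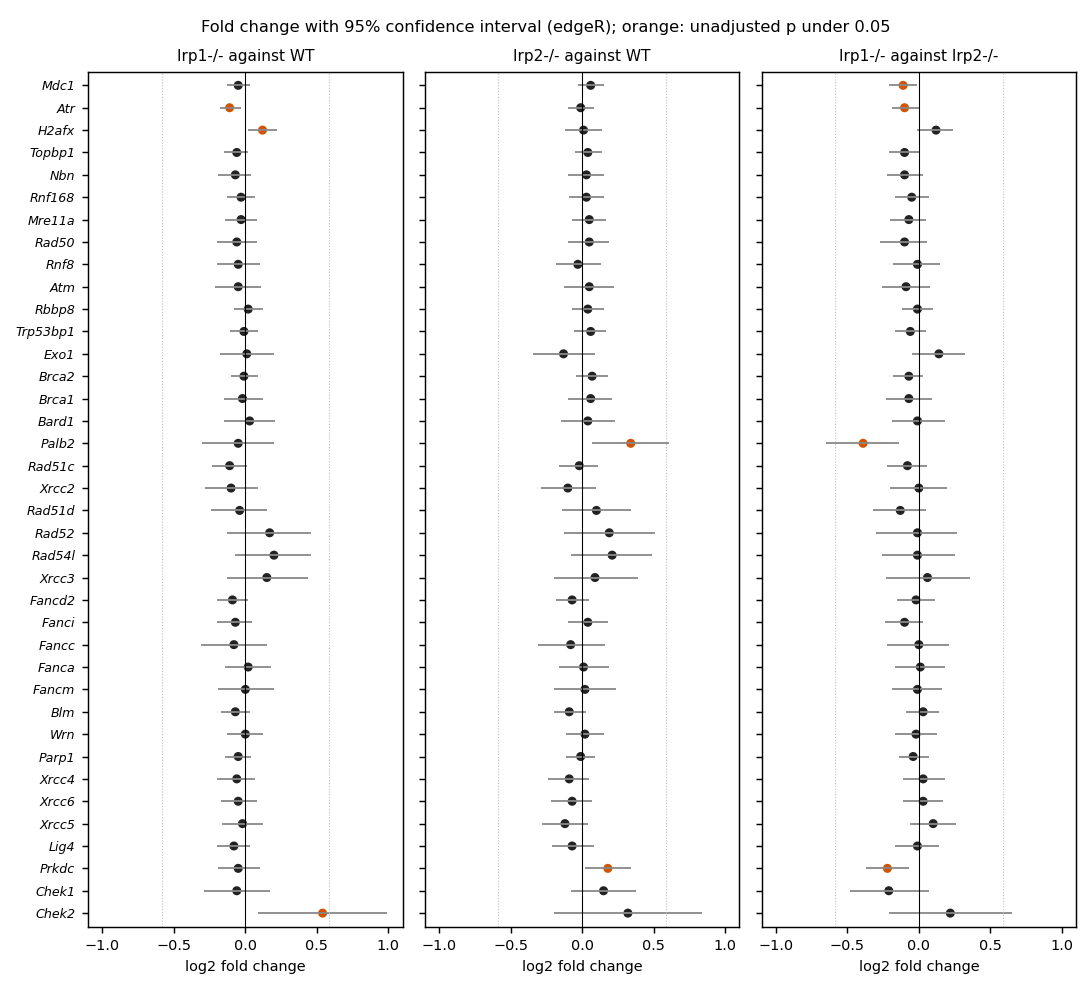
Log2 fold change of each member (points) with its 95% confidence interval (bars) from edgeR in the 3 comparisons, grouped by role and ordered as in the plot of levels. Dotted lines mark 1.5-fold in either direction, and orange points have an unadjusted p under 0.05 (3, 2 and 4 members), with no adjusted p under 0.05.

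**Figure D4:**
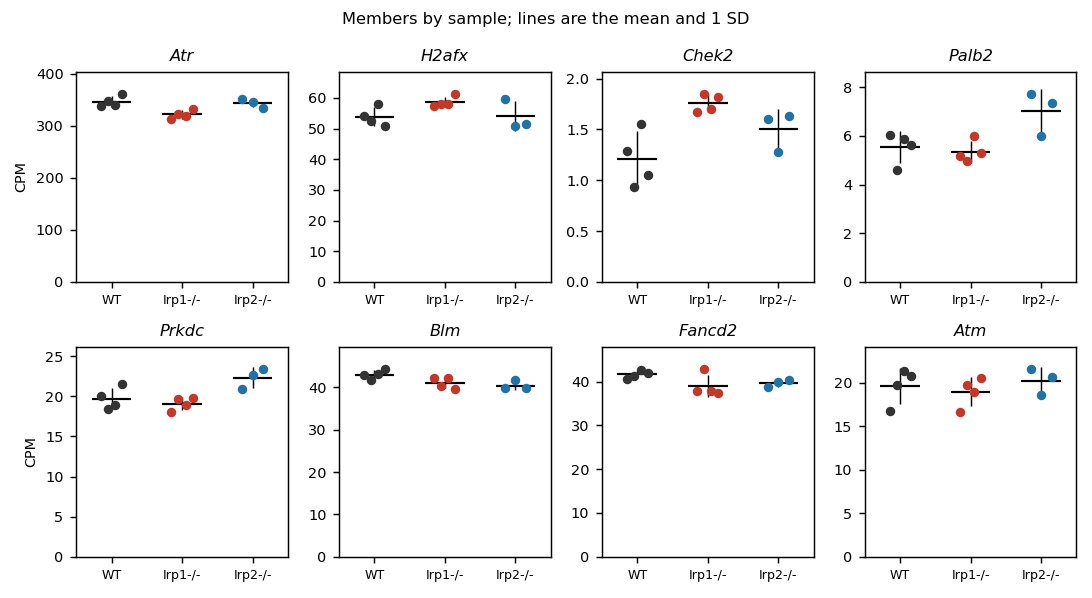
CPM of 8 members in every sample of WT (n = 4), Irp1-/- (n = 4) and Irp2-/- (n = 3) testes, with the mean and 1 SD as lines and each vertical axis starting at 0. Chek2 and Palb2 show the widest relative spread, at 0.932 to 1.84 and 4.598 to 7.70 CPM, while Atr stays between 313 and 360.0 CPM.

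Exo1, the third lowest per length, had 11.1, 13.6, 9.89 and 12.1 CPM in WT, 11.6, 10.97, 12.3 and 11.9 CPM in Irp1-/- and 11.3, 10.4 and 10.3 CPM in Irp2-/- samples, and its WT samples spanned those of both knockouts. Its log2 fold changes were 0.01 in Irp1-/- and -0.13 in Irp2-/- against WT (standard errors 0.093 and 0.11). Chek1 had 9.52, 8.70, 8.16 and 9.40 CPM in WT, 9.52, 10.2, 7.48 and 6.98 CPM in Irp1-/- and 8.504, 10.1 and 11.3 CPM in Irp2-/- samples, so the Irp1-/- samples lay on both sides of the WT range.

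The 12 divergent neighbours of the members were all tested and 0 of them were called in any comparison. Of all tested genes 1.02% were called in Irp1-/- against WT, 1.21% in Irp2-/- against WT and 4.69% in Irp1-/- against Irp2-/-. At these shares a count of 0 in 12 genes says little about the neighbours. Tex14 and Rad51c had log2 fold changes of -0.15 and -0.11 in Irp1-/- against WT (adjusted p = 0.159 and 0.476). Zfyve21 and Xrcc3 had 0.27 and 0.15 (adjusted p = 0.335 and 0.714). For Chek2, the neighbour Hscb had -0.02 and -0.13 in Irp1-/- and Irp2-/- against WT and 0.12 in Irp1-/- against Irp2-/-, where Chek2 had 0.22. Exon positions were shared with a tested gene of the opposite strand in 11 members, among them Atr, Fancd2, Fanci, Rad54l, Xrcc3, Xrcc4, Xrcc6, Mre11a, Trp53bp1, Fanca and Fancc.

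The wider pathway gave the same count. Of 92 other genes of break repair and checkpoint signalling in the table, 90 were tested, and 0 were called in any of the 3 comparisons by edgeR, where 1.02%, 1.21% and 4.69% of all tested genes were. At an unadjusted p under 0.05 there were 2, 2 and 6 genes (2.22%, 2.22% and 6.67%, against 12.1%, 9.42% and 16.3% of all tested genes), and the medians of their log2 fold changes were -0.033, -0.001 and -0.018. In Irp1-/- against WT these were Usp3, a deubiquitinase gene (log2 fold change -0.19, adjusted p = 0.186), and Polq, the polymerase gene of microhomology-mediated end joining (log2 fold change -0.16, adjusted p = 0.317). In Irp2-/- against WT they were Rpa1, a subunit gene of the protein that coats single-stranded DNA (log2 fold change -0.12, adjusted p = 0.356), and Kdm2a (log2 fold change 0.12, adjusted p = 0.433). In Irp1-/- against Irp2-/- all 6 had a lower value, among them the resolvase gene Gen1 (log2 fold change -0.32, adjusted p = 0.166) and Uimc1 (log2 fold change -0.16, adjusted p = 0.219). Of the genes near a targeted locus, Aptx and Fancg lie 0.484 and 2.80 Mb from Aco1 and had log2 fold changes of 0.06 and -0.08 in Irp1-/- against WT (adjusted p = 0.598 and 0.561). Usp28 and Tipin lie 5.82 and 9.37 Mb from Ireb2 and had 0.01 and 0.13 in Irp2-/- against WT (adjusted p = 0.987 and 0.547).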

How the data were processed

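Polyadenylated RNA of whole testes was sequenced as stranded paired-end libraries, with all RNA integrity numbers stated to be high. The table the authors deposited holds raw counts, one row a gene and not normalized. Trimming, alignment to mm10 (GRCm38, iGenomes annotation) and counting were run by them in an nf-core workflow. The counting tool and its strand setting are not given in the sources used here, and the counts may be rounded estimates. The submitters' processing notes name DESeq2 and bcl2fastq. Genotypes came from the labels. The column names also carry a letter whose meaning is not stated, R for Irp1-/- replicate 6 and L for the others. The 38 members and all gene lists were chosen with earlier results of these data known.

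Each comparison was fitted on the samples of its 2 genotypes across all genes that passed filterByExpr (minimum count 10), with edgeR 4.0.16 in R 4.3.3 (TMM normalization, robust quasi-likelihood test) and Benjamini-Hochberg adjustment over all genes tested. A gene was called at an adjusted p under 0.05. Each standard error is the absolute log2 fold change over the root of its F value. CPM was scaled by TMM factors of 0.979 to 1.03 over the 11 samples. Transcript lengths, exons and start sites came from GENCODE vM21, in which 23342 of 24411 symbols were found, and promoters from RefSeq. The fits were tested on simulated data with 200 changed genes. Alternatives were RLE normalization, no count filter, at least 10 counts in every sample, DESeq2 1.42.0, a fit of all 11 samples, a replicate block and leaving out each replicate. Sample values are given for members without overlap between genotypes in a comparison, the 6 with the smallest p in each comparison, the 3 highest and 3 lowest per length in WT and those within 10 Mb of a targeted gene, and Chek1 and the divergent neighbours were added after their values were seen. Of the other pathway genes, up to 3 per comparison by p and those within 10 Mb are named. A gene covered by this rule is not reported here. Brcc3dc and Paxx were not matched to a symbol, and Fancb and Dntt did not pass the filter. Precision was set by 15902473 to 22451417 counts per sample.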

Additional observations from a re-analysis of the deposited data

Results flagged for a closer look

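Dixon's ratio, the gap of the highest or lowest sample to its nearest neighbour over the whole range, was computed on CPM for the 38 members in each group of 4 samples (WT and Irp1-/-). It exceeded the 95% critical value for 4 samples in 8 of 76 groups, where chance flags about 1 in 20 (3.8 of 76). In Irp1-/- replicate 6, the library with the letter R, Rad50 stood at 26.3 CPM (the others 21.3 to 21.8) and Wrn at 59.4 CPM (49.1 to 50.2). In Irp1-/- replicate 7, H2afx stood at 61.1 CPM (57.4 to 57.9) and Rad51d at 12.2 CPM (13.0 to 13.1). In Irp1-/- replicate 2, Fancd2 stood at 42.8 CPM (37.5 to 38). Among the WT samples, Rad51c was at 27.1 CPM in replicate 3 (28.3 to 28.5), Rad54l at 7.19 CPM in replicate 4 (4.93 to 5.28) and Fanci at 22.5 CPM in replicate 1 (24.5 to 24.7). The meaning of these single samples was not tested.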

How the results depend on the processing

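Of 40 alternative counts of members called, 39 were 0. In the main fit of Irp1-/- against Irp2-/- 4.69% of all tested genes were called. That share is not given here for the fits without 1 replicate. Leaving out each replicate in turn gave 0 to 1 member called in Irp1-/- against Irp2-/-, the 1 being Prkdc without Irp2-/- replicate 1 (log2 fold change -0.27). Over these fits the median log2 fold change of the members lay between -0.057 (without Irp2-/- replicate 1) and -0.018 in that comparison, with -0.052 without Irp1-/- replicate 6, between -0.052 and -0.023 in Irp1-/- against WT, and between 0.012 and 0.040 in Irp2-/- against WT. With mean transcript length in place of the longest, the WT levels were 112 CPM per kb for Mdc1, 7.44 for Exo1, 1.98 for Palb2 and 1.19 for Chek2. Of the alternative log2 fold changes of named members, 423 kept direction and side of the threshold and 15 changed sign, all of them in Atm, Exo1, Atr and H2afx. With the replicate block, Atm was 0.0041 and Exo1 -0.12 in Irp1-/- against WT, and Atr was 0.01 and H2afx -0.02 in Irp2-/- against WT. Without 1 replicate, Atm was at most 0.0068 (without Irp1-/- replicate 1) and Exo1 -0.06 to 0.09 in Irp1-/- against WT, and in Irp2-/- against WT Atm was -0.03 to 0.11, Atr at most 0.01 and H2afx -0.07 to 0.06. The cause was not tested.

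The correlations of same-numbered samples' deviations lay between -0.00908 and 0.0772. No differently numbered pairs were computed beside them, so these values cannot decide whether the samples were paired. The fit with the replicate block drops samples without a same-numbered partner, which leaves replicates 1 and 2 of each genotype in the comparisons with Irp1-/- and replicates 1 to 3 in Irp2-/- against WT. It called 0 members in each comparison, and 5, 3 and 2 had an unadjusted p under 0.05 (13.2%, 7.89% and 5.26%, against 13.7%, 9.34% and 14.6% of the genes tested in these fits). In Irp1-/- against WT it gave Rad54l 0.47 (adjusted p = 0.115, the smallest of the members in that fit) and Rad51c -0.19 (adjusted p = 0.318). Depth limits Chek2 most, at 15 to 41 reads per library, while every other member had at least 61.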
